A study of Mus musculus with 8 samples.

Results

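The 42 genes described here encode heterogeneous nuclear ribonucleoproteins (hnRNPs) and other RNA-binding proteins that regulate splicing, and the data show where an antibody against Zmat3 recovered their RNA. The genes were fixed by name, all 42 were found in the mouse gene table, and a called peak belonged to a gene if its midpoint lay in the gene's mm10 span on the strand with most called peaks. Over 7 peak lists they held 7518 of 978429 called peaks, and in the whole series 14782 genes held at least 1.

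Zmat3 is a zinc finger RNA-binding protein and a transcriptional target of p53, and the series set out to find the RNAs it binds. Crosslinking and immunoprecipitation (CLIP) was used: cells were irradiated with UV light to join protein to RNA, the RNA was trimmed with RNase, and the fragments that came down with the antibody were sequenced. There were 8 samples, namely 3 control immunoprecipitates (IPs), 1 Zmat3 knockout IP and the input of each, all from mouse embryonic fibroblasts. The controls were Cas9+ fibroblasts carrying E1A and HrasG12V and 1 of 3 negative-control guides (EV in control 1, SPA in control 2 and ACOCA in control 3), selected with puromycin for 3 days and cultured for 10 more. The knockout (Zmat3-/-) was a single line with E1A and HrasG12V, no guide and no Cas9 in its genotype label. No puromycin selection or culture time is given for it. Genotype, guide, Cas9, line, puromycin selection and culture time thus cannot be told apart. All 4 lines were therefore transformed cells, all had been retrovirally transduced, and the same number of cells entered each experiment. The labels do not say that the control lines came from separate embryos, so any p-value measures the spread between these lines only.

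hnRNPs coat nascent transcripts and act mostly by blocking or promoting the use of nearby splice sites. Many of them, and many other splicing regulators, also act on their own pre-mRNA or on that of a paralogue, often through exons whose inclusion sends the transcript to decay. Their RNA is abundant in dividing cells.

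Of the 7 lists, 4 compare an IP with input and 3 compare a control IP with the knockout IP. Each peak carries the authors' log2 fold of the IP over the named comparator and their −log10 p-value. The lists over input held 122284 to 153768 called peaks in the controls and 167648 in the knockout. They give no read counts, so depth is unknown. Between 13.0% (control 1) and 22.4% (knockout) of all called peaks over input shared a single log2 value, so the fold of a single peak is coarse. Zmat3 itself had 42, 48 and 39 called peaks in the control lists over input and 38 in the knockout list, and 4, 16 and 1 of its peaks were enriched over the knockout IP, so this RNA was still sampled in the knockout line. Of 8 fibroblast markers, 5 had a called peak in any list over input, with Fn1 at 59 to 79 peaks and Vim at 13 to 21, while Col1a1, Col1a2 and Thy1 had 0 in all 4 IPs. Pdgfrb had 16, 12 and 10 peaks in the controls and 2 in the knockout. Of the 4 epithelial markers, Epcam had 5 to 11 peaks per IP and Krt18 had 0, 5 and 0 in the controls and 8 in the knockout. Cdh1 had 0, 0 and 1 in the controls and 1 in the knockout, and Krt8 had 0 in all 4 IPs. The 3 endothelial markers also had 0. Whether such differences between the lines bear on the results below was not tested.

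Peaks are called enriched here where both their log2 fold and their −log10 p-value reach 3 or more. Over input, 10 of 911 called peaks in the 42 genes were enriched in control 1, or 1.10% (95% exact binomial interval 0.528 to 2.01%, counting error only). In control 2 it was 24 of 1197, or 2.01% (1.29 to 2.97%), and in control 3 it was 3 of 979, or 0.306% (0.0632 to 0.893%). In the knockout it was 2 of 1342, or 0.149% (0.0181 to 0.537%). The background over all called peaks was 1.02%, 1.05%, 0.494% and 0.316% in the same order, so the splicing regulators lay above it in control 2. Their share was lower than the background in control 3 and the knockout. The intervals of control 1, control 3 and the knockout included the background. Controls averaged 1.14% ± 0.850 (SD, n = 3), which was 0.987 percentage points above the knockout (0.553 without control 2). An exact two-sided permutation test of the 3 controls against the 1 knockout gave p = 0.5, where 0.25 is the smallest p the design allows, and control 3 lay closer to the knockout than to the other controls.

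Over the knockout IP, the enriched share was 0.988% in control 1, 2.00% in control 2 and 1.53% in control 3, beside a background of 0.621%, 1.09% and 0.648%. All 3 lists lie above their background here, but all use the same knockout library as comparator.

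**Figure D1:**
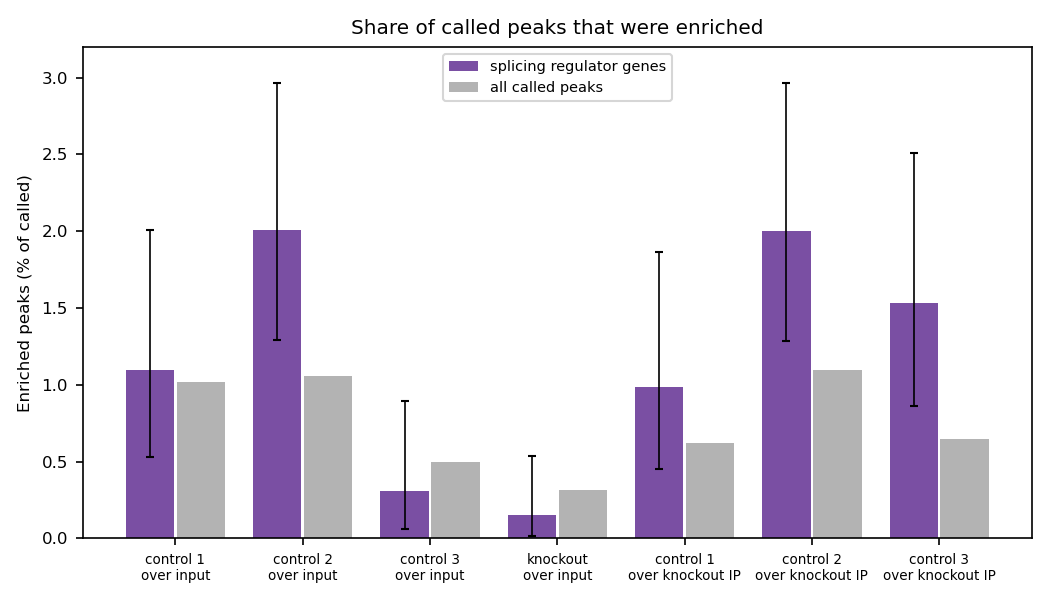
Share of called peaks that were enriched (log2 fold and −log10 p-value both at least 3), in percent of called peaks, for the 42 splicing regulator genes (purple) and for all called peaks (grey) in each of the 7 lists. Error bars are 95% exact binomial intervals and cover counting error only; control 2 is highest over input at 2.01% and the knockout lowest at 0.149%.

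Of the 42 members, 15 had an enriched peak in at least 1 of the 7 lists, and they are 36.6% of the 41 members with called peaks in all 3 controls, beside a background of 21.2% of genes. The other 27 had none, among them Hnrnpa1, Hnrnpa2b1, Hnrnpu, Hnrnpm, Qk, Tia1, Matr3 and both Transformer 2 genes. The F/H group, the R and Q proteins, the U group and the Transformer 2 pair had 0 enriched peaks in every list. Members with at least 1 enriched peak over input numbered 6, 14 and 3 in controls 1 to 3 (14.6%, 34.1% and 7.32% of the 41) and 1 in the knockout (2.44%). The backgrounds were 6.96%, 11.5%, 3.61% and 2.85% of genes. Over the knockout IP they numbered 8, 13 and 9 (19.5%, 31.7% and 22.0%), beside 5.45%, 12.2% and 5.51% of genes.

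To find sites that stood above both comparators, a control peak was said to qualify where it passed these thresholds against input and shared its strand and at least 1 nt with a peak that the same library enriched against the knockout IP. A region is the merged stretch of overlapping qualifying peaks supported by at least 2 of the 3 controls. Such regions lay in 5 members, Hnrnpab, Hnrnpk, Hnrnpl, Sfpq and Taf15, with 1 region each. That is 12.2% of the 41 members with called peaks in all 3 controls (Hnrnph2 had none in control 3), beside 1.98% of all 10072 genes that meet this condition. A qualifying peak in any control was found in 12 members (29.3%), beside a background of 8.52%.

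The members carry more called peaks than the average gene, with a median of 19.7 per control against 7.33. Among the 1252 genes whose number of called peaks fell in the interquartile range of the members (15.7 to 26 peaks, a range chosen after the counts were seen), 3.43% had a region and 15.6% a qualifying peak. The 21 members in that range included 2 with a region and 5 with a qualifying peak. Other splicing regulators, a list of 58 genes outside the 42, had a region in 5 of the 48 genes with called peaks in each control (10.4%) and a qualifying peak in 9 (18.8%). Of 10 SR protein genes with called peaks, 1 had a region (Srsf5) and 4 a qualifying peak. These counts are descriptions, and no test was made of the list.

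Control 2 carried much of the support. Of 13 further stretches that qualified in 1 control, 12 came from control 2. Without control 2, 1 member (Hnrnpab) kept a region. Without control 1 there were 3 (Hnrnpab, Sfpq and Taf15), and without control 3 there were 3 (Hnrnpab, Hnrnpk and Hnrnpl). In the whole series the 203 regions fell to 81 without control 2, 129 without control 1 and 150 without control 3. Leaving out control 2 thus cost the most regions in the whole series too. With 1 control left out, a region needs both of the others, so these counts can only fall. Enriched peaks over input numbered 10, 24 and 3 in controls 1 to 3 in the members. Over all called peaks they numbered 1319, 1622 and 604, so control 2 stood out more in the members. How many single-control stretches of the whole series came from control 2 was not counted. At the 12 control 2 stretches, control 1 had an overlapping called peak at 9, with a median log2 fold over input of 2.19, and control 3 at 10, with a median of 2.36. Control 2 itself had a median of 3.80 there, a difference that the choice of these stretches fixes. No called knockout peak overlapped any of the 18 stretches, although a knockout peak overlapped 41.9 to 48.2% of the members' called control peaks (28.2 to 30.5% of all called control peaks). The nearest knockout peak was 21 to 1892 nt away. Enrichment over the knockout IP is part of the rule for these stretches, so this is a description.

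In the A/B group, the 7 genes encode proteins with paired RNA recognition motifs that repress exons or bind AU-rich elements. Hnrnpab held the region that all 3 controls supported, at chr11:51605683-51605750 on the minus strand, 1165 nt from the 5′ end of the gene span. Its log2 fold over input was 3.71, 5.02 and 3.35 in controls 1 to 3 (4.02 ± 0.88, SD, n = 3), and no knockout peak was called at it. The values over the knockout IP were 3.41, 4.71 and 3.75 (3.96 ± 0.68, SD, n = 3). Control 2 was highest against both comparators, and the 3 controls all passed the threshold. Separate stretches on either side qualified in 1 control: chr11:51605777-51605851 in control 1 (3.09 over input and 3.01 over the knockout IP) and chr11:51604837-51604917 in control 2 (3.34 and 4.62).

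Hnrnpdl, the paralogue of the AU-rich element binding gene Hnrnpd, qualified in control 2 at chr5:100034983-100035069, minus strand. Over input its log2 fold there was 2.35, 4.16 and 2.31 in controls 1 to 3, and over the knockout IP 2.51, 3.22 and 3.30. Controls 1 and 3 thus lay below the threshold over input. Against the knockout IP alone, 7 enriched peaks of the 3 controls fell in a stretch of 359 nt (chr5:100034983-100035341), and they formed 3 separate regions. The middle one, at chr5:100035172-100035264, was enriched in all 3 controls over the knockout IP, with log2 folds of 3.41, 4.16 and 3.63. Over input the peaks overlapping it reached 2.35, 2.29 and 2.64, so its values over input were below the threshold in each control.

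Hnrnpa1, a widely expressed exon repressor, was thinly sampled, with 4, 3 and 6 called peaks in the controls and 7 in the knockout, none enriched. The other A/B members (Hnrnpa0, Hnrnpa2b1, Hnrnpa3 and Hnrnpd) had 7 to 25 called peaks per IP and 0 enriched in any list.

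Hnrnpc, which binds uridine tracts and packages nascent RNA, had 19, 25 and 15 called peaks in the controls and 24 in the knockout. It qualified in control 2 at chr14:52075759-52075862, where the log2 fold over input was 1.90, 3.29 and 1.40 in controls 1 to 3. The values over the knockout IP were 0.60, 3.57 and 1.81 there, so control 2 stood apart from the other controls. Its relative Raly qualified in control 2 at chr2:154859556-154859655, with 4.87 over input and 3.16 over the knockout IP. Control 3 had 3.40 over input at that site with a −log10 p-value of 2.48 and 2.81 over the knockout IP, and control 1 had no called peak there.

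Among hnRNPs K, L and M, Hnrnpk encodes a KH-domain protein that binds cytidine-rich RNA. Its region was at chr13:58393921-58394014, minus strand, and the log2 fold over input was 4.64, 3.57 and 2.77 in controls 1 to 3 (3.66 ± 0.94, SD, n = 3). The corresponding values over the knockout IP were 3.92, 4.82 and 3.17 (3.97 ± 0.83, SD, n = 3). Control 3 missed support by its value over input, which also had a −log10 p-value of 2.61. An upstream stretch at chr13:58395695-58395812 qualified in control 2, with 4.92 over input and 4.20 over the knockout IP. Control 3 had 3.50 and 4.49 at that stretch, with a −log10 p-value of 2.72 over input, and control 1 had no called peak there.

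Another site in Hnrnpk, at the hairpin of the microRNA gene Mir7-1, was enriched over input but not over the knockout IP, and it is shown because it lies 1034 nt downstream of the region and behaved differently from it. Mir7-1 lies inside the Hnrnpk span on the same strand, at chr13:58392779-58392886 (RefSeq, GRCm38.p6), and gives rise to miR-7a. In the mature sequences the capitals mark the seed, bases 2 to 8. In the hairpin the capitals mark the 20 bases covered by a called peak over input of all 4 IPs.
mmu-miR-7a-5p: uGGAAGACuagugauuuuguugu
mmu-miR-7a-1-3p: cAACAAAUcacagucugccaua
Mir7-1 hairpin: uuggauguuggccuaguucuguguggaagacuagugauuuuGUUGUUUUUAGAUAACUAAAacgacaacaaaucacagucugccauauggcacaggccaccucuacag
The shared stretch, hairpin bases 42 to 61, takes in the last 5 bases of the 5p arm (bases 24 to 46) and stops before the 3p arm (bases 66 to 87). The log2 fold over input was 4.02, 4.41 and 2.18 in controls 1 to 3 (3.53 ± 1.19, SD, n = 3) and 1.97 in the knockout. It was 0.84, 1.23 and −0.29 over the knockout IP (0.59 ± 0.79, SD, n = 3). At the hairpin controls 1 and 2 had positive values over the knockout IP, but their −log10 p-values of 0.66 and 1.54 were below the threshold. Positive values were usual in these lists, whose medians were 1.18, 0.88 and 1.00 in controls 1 to 3. Controls 1 and 3 thus lay below their list median at the hairpin and control 2 above it. Over input, control 3 and the knockout had −log10 p-values of 0.60 and 0.51, also below the threshold. At the Hnrnpk region all 3 controls exceeded 3 over the knockout IP and the knockout had no called peak.

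**Figure D2:**
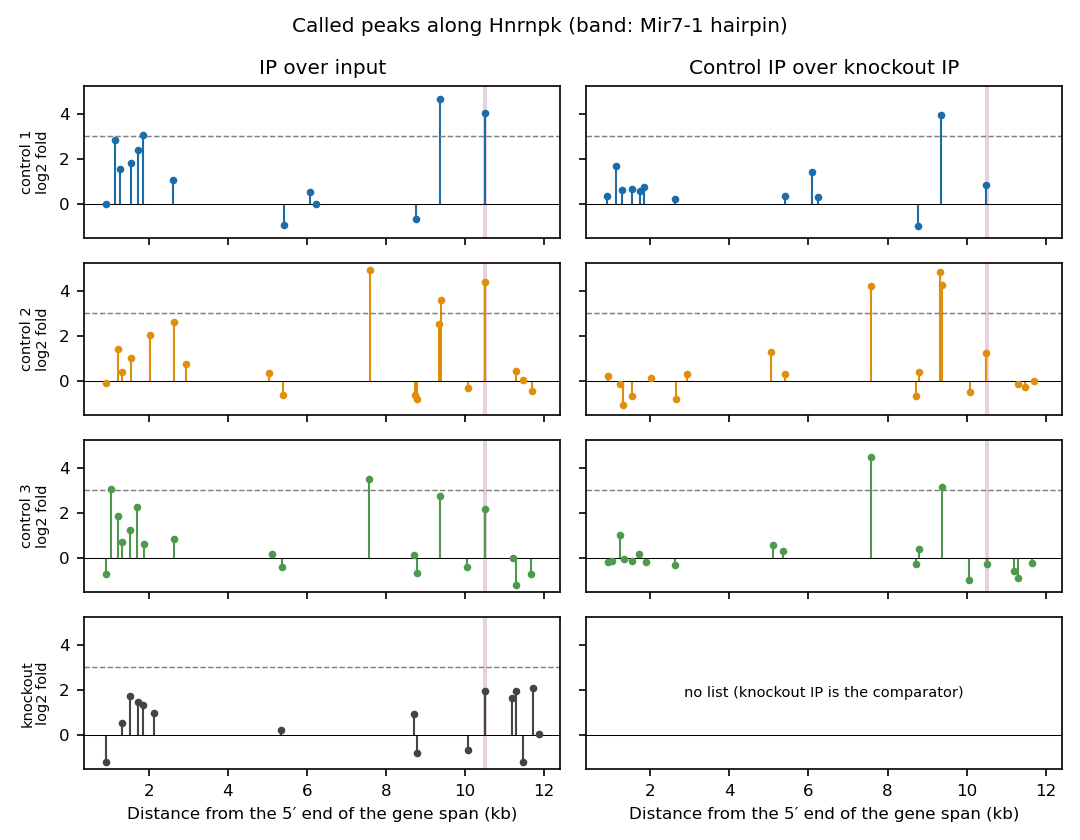
Called peaks along Hnrnpk, each drawn at its midpoint as the distance from the 5′ end of the gene span in kb, with the authors' log2 fold over input (left) and over the knockout IP (right) for each IP; the dashed line is the log2 threshold of 3 and the band is the Mir7-1 hairpin. At the hairpin the controls reach 4.02, 4.41 and 2.18 over input but 0.84, 1.23 and −0.29 over the knockout IP, while the region just upstream stays above 3 against the knockout IP in all 3 controls.

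Hnrnpl, which binds CA-rich RNA and represses or activates exons by position, had its region at chr7:28813133-28813246 on the plus strand. Over input the log2 fold was 3.56, 3.13 and 1.84 in controls 1 to 3 (2.85 ± 0.89, SD, n = 3). Against the knockout IP it was 3.26, 3.19 and 3.25 (3.23 ± 0.04, SD, n = 3). The controls were nearly equal against the knockout IP, and control 3 was the low one over input. Hnrnpll and Hnrnpm had 9 to 39 called peaks per IP and 0 enriched.

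The polypyrimidine tract binding proteins repress exons by binding pyrimidine-rich RNA. Ptbp1, the form of most dividing cells, had 21, 26 and 15 called peaks in the controls and 26 in the knockout. It had 1 enriched peak over input in control 1 (chr10:79862262-79862323, log2 fold 3.22) and 1 in control 2 (chr10:79860758-79860793, 3.10). A peak of control 1 at chr10:79860530-79860565 had 4.18 over the knockout IP. These 3 peaks lay at different sites, none qualified, and all 3 midpoints also lay in the span of Plppr3, so they count for Ptbp1 by strand alone. Its paralogue Ptbp2, the form of developing neurons, qualified in control 2 at chr3:119737248-119737338. The log2 fold there was 1.68, 3.50 and −0.40 over input in controls 1 to 3, and 2.77, 4.10 and 0.58 over the knockout IP, so the controls differed by several log2 units. Ptbp3 had 15 to 23 called peaks per IP and 0 enriched.

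Among the regulators of developmental and tissue-specific exons, Rbfox2 had the most called peaks of the members in each control (104, 123 and 95), had 139 in the knockout and covers 229445 nt. It qualified once, in control 2 at chr15:77099528-77099606, with log2 folds over input of 2.90, 4.10 and 2.77 in controls 1 to 3 and over the knockout IP of 3.18, 3.38 and 2.75. The −log10 p-values over input in controls 1 and 3 were 1.30 and 1.29, below the threshold. Celf1, which binds GU-rich RNA and acts against muscleblind proteins at many exons, had 48, 54 and 62 called peaks in the controls and 66 in the knockout. It had 0 enriched over input, and over the knockout IP a site at chr2:91008070-91008137 had 2.92, 4.47 and 4.04 in controls 1 to 3. Control 1 was below both thresholds there, with a −log10 p-value of 1.40. The log2 folds over input at this site were 1.05, 2.19 and 2.06. Qk, which encodes the STAR-domain protein quaking, had 15, 22 and 27 called peaks in the controls and 30 in the knockout, none enriched, and its highest value over input was 2.02. Across the 42 genes, Spearman's rho between span length and the number of called peaks over input was 0.634 to 0.770 over the 4 IPs, a description across genes that share the same libraries.

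Mbnl2, a muscleblind protein that switches exons in muscle and brain, was the member with enriched peaks in the knockout. Over input it had 58, 115 and 45 called peaks in the controls and 148 in the knockout, of which 2, 4, 0 and 2 were enriched. The knockout peaks were at chr14:120412776-120412846 (4.17) and chr14:120414005-120414110 (3.93). In controls 1 and 2 a site at chr14:120326700-120326808 was enriched, with 3.96, 4.54 and 2.77 over input in the controls and 1.80 in the knockout. A second site at chr14:120412616-120412700 had 3.05, 3.54 and 2.30 in the controls and 2.79 in the knockout. Over the knockout IP, the first site had −0.84, −1.25 and −1.95 and the second −0.75, −0.93 and −1.39, and 0 Mbnl2 peaks were enriched in those 3 lists. Both sites were thus above input in all 4 IPs and below 0 against the knockout IP in each control. The order of controls and knockout at these sites differs between the comparators: at the first site all 3 controls exceeded the knockout over input.

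**Figure D3:**
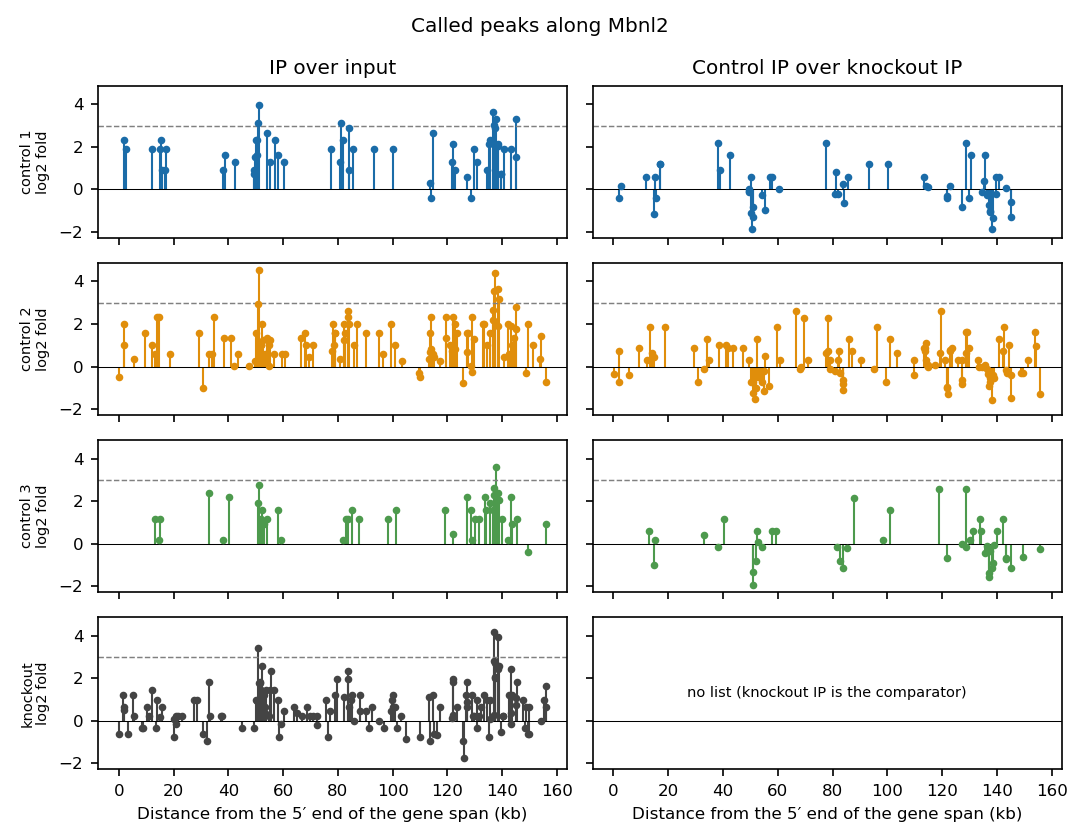
Called peaks along Mbnl2, each drawn at its midpoint as the distance from the 5′ end of the gene span in kb, with the authors' log2 fold over input (left) and over the knockout IP (right) for each IP; the dashed line is the log2 threshold of 3. Peaks above 3 over input occur in the controls and the knockout, and none reaches 3 over the knockout IP.

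The FET proteins and TDP-43 bind nascent RNA broadly and have been studied in motor neuron disease, and all 3 members of this group had a qualifying peak. Taf15 had the region of the group, at chr11:83498900-83498978 on the plus strand, where controls 2 and 3 had log2 folds of 3.02 and 3.77 over input (3.39 ± 0.53, SD, n = 2) and control 1 had no called peak. They had 3.88 and 3.75 over the knockout IP (3.82 ± 0.09, SD, n = 2). A second Taf15 stretch at chr11:83502615-83502738 qualified in control 2, with 2.90, 3.29 and 3.18 over input and 2.60, 3.57 and 3.17 over the knockout IP in controls 1 to 3. The controls were close to each other at this stretch, and the −log10 p-values over input of 2.66 in control 1 and 2.01 in control 3 were below the threshold.

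Ewsr1 qualified in control 2 at 2 stretches near its 3′ end. At chr11:5070752-5070878, minus strand, the log2 fold over input was 3.90, 3.88 and 2.28 in controls 1 to 3, and over the knockout IP 2.96, 4.38 and 3.49. Control 1 missed the threshold over the knockout IP by a small margin and control 3 missed it over input, so each comparator was passed by 2 controls. At chr11:5070548-5070599 control 2 alone had a called peak, with 4.54 over input and 3.82 over the knockout IP. Tardbp, which encodes TDP-43, a repressor of cryptic exons that also controls its own mRNA, had 16, 15 and 20 called peaks in the controls and 24 in the knockout. At chr4:148622173-148622290 on the minus strand its log2 fold over input was 1.98, 3.72 and 2.40 in controls 1 to 3, and it qualified in control 2. Its values over the knockout IP were 3.85, 5.00 and 4.39, above the threshold in all 3 controls.

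Sfpq and its partners Nono and Pspc1 form the core of nuclear paraspeckles, and Matr3 binds RNA at the nuclear matrix. The Sfpq region at chr4:127035664-127035760, plus strand, lay in the middle of the gene span, 14996 nt from its 5′ end. The log2 fold over input was 2.64, 3.69 and 3.37 in controls 1 to 3 (3.23 ± 0.54, SD, n = 3). Against the knockout IP it was 4.92, 5.97 and 5.94 (5.61 ± 0.60, SD, n = 3), the highest mean over the knockout IP of the 5 member regions. A second stretch, chr4:127036809-127036875, qualified in control 2 with 3.72 and 4.0, where control 1 had 1.90 and 2.18 and control 3 had no called peak. Matr3, Nono and Pspc1 had 12 to 36 called peaks per IP and 0 enriched.

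**Figure D4:**
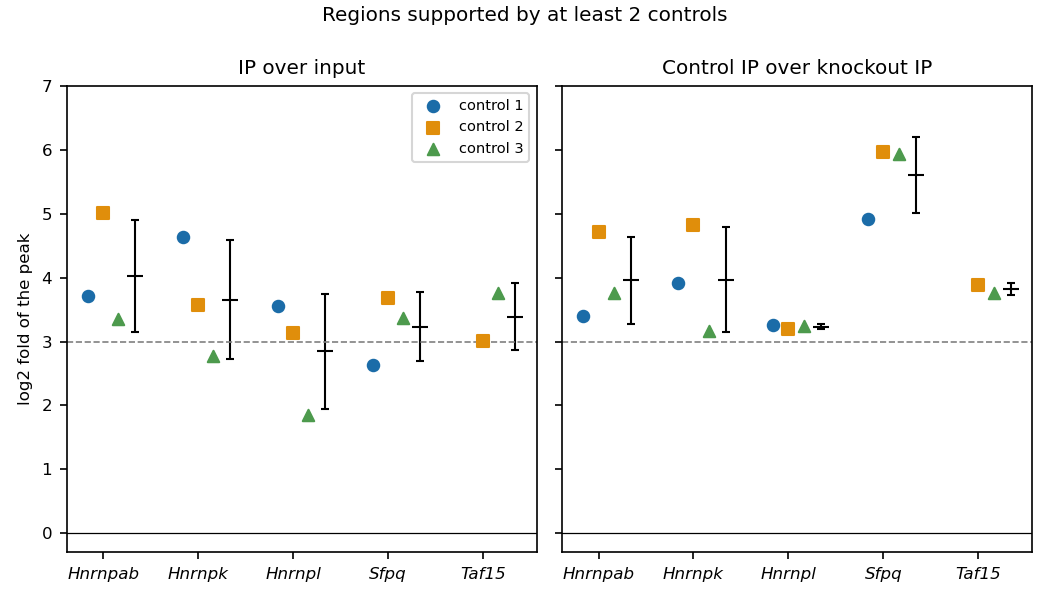
The authors' log2 fold at the 5 regions supported by at least 2 controls, over input (left) and over the knockout IP (right), with 1 symbol per control and the mean and SD of the called values beside them (n = 3, and n = 2 for Taf15); the dashed line is the threshold of 3. Sfpq has the highest mean over the knockout IP at 5.61, and the values over input spread more than those over the knockout IP at Hnrnpl (SD 0.89 against 0.04).

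Enrichment over 1 comparator alone gave more member regions. Over the knockout IP alone, 15 regions in 9 members were supported by at least 2 controls, 6 of them by all 3, and 5.04% of all genes had such a region. Celf1, Ewsr1, Hnrnpdl and Tardbp joined the 5 genes above. Over input alone, 9 regions in 7 members were supported, beside 4.15% of all genes, with Ewsr1 and Mbnl2 joining the 5. A knockout peak overlapped 3 of those 9, namely the Mir7-1 hairpin and both Mbnl2 sites, and 0 of the 15. Enrichment over the knockout IP is the rule for the 15, so their lack of overlap is a description. The share of such regions with a knockout peak in the whole series was not counted.

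Whole-gene values asked whether the RNA of these genes as a whole was recovered more or less than in the knockout. For each gene with at least 5 called peaks in every list concerned, the median log2 fold of its peaks was taken, and the median of all called peaks of the list was subtracted. Of 40 members tested over the knockout IP, 0 lay at or above 1 in all 3 controls (background 0.419%) and 0 at or below −1 (background 0.991%). Members below their list's median in all 3 controls numbered 21 (52.5%), beside a background of 24.8%, and 2 lay above it in all 3, beside 19.7%. The median member was at −0.30 against 0.00 for all genes. On the scale as deposited, without this centring, 37 of the 40 lay above 0 in all 3 controls, beside 91.7% of all genes, so the direction holds only relative to the other genes. The 3 lists share 1 knockout library, and no test was made over them. In bulk lines, a lower level of a transcript, fewer cells that hold it and less recovery per transcript cannot be told apart.

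Mbnl2 was lowest, with −1.17, −0.58 and −1.15 in controls 1 to 3 (−0.97 ± 0.33, SD, n = 3), place 189 from the bottom among 5246 genes. Hnrnpf, which binds guanine tracts, had −0.60, −1.12 and −0.89, and its paralogue Hnrnph1 had −1.17, −0.67 and −0.72. These 3 genes differed by less than the spread between controls. At the other end stood their paralogue Hnrnph3, with 0.87, 0.35 and 0.08, then Hnrnpdl with 0.14, 0.77 and 0.17, and Tia1, which binds uridine-rich RNA next to splice sites, with 0.00, 0.32 and 0.58. The spread of these values between controls was close to their means, and their order is not resolved. Hnrnpk, with a region that stood well above the knockout IP, had whole-gene values of −0.58, −0.75 and −1.13, so a strong single site occurred in a gene whose median peak lay below that of the list. All 3 U-group genes and both Transformer 2 genes lay below the list median in each control. Of the other splicing regulators, 22 of 45 (48.9%) did so, and of the SR proteins 3 of 10.

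**Figure D5:**
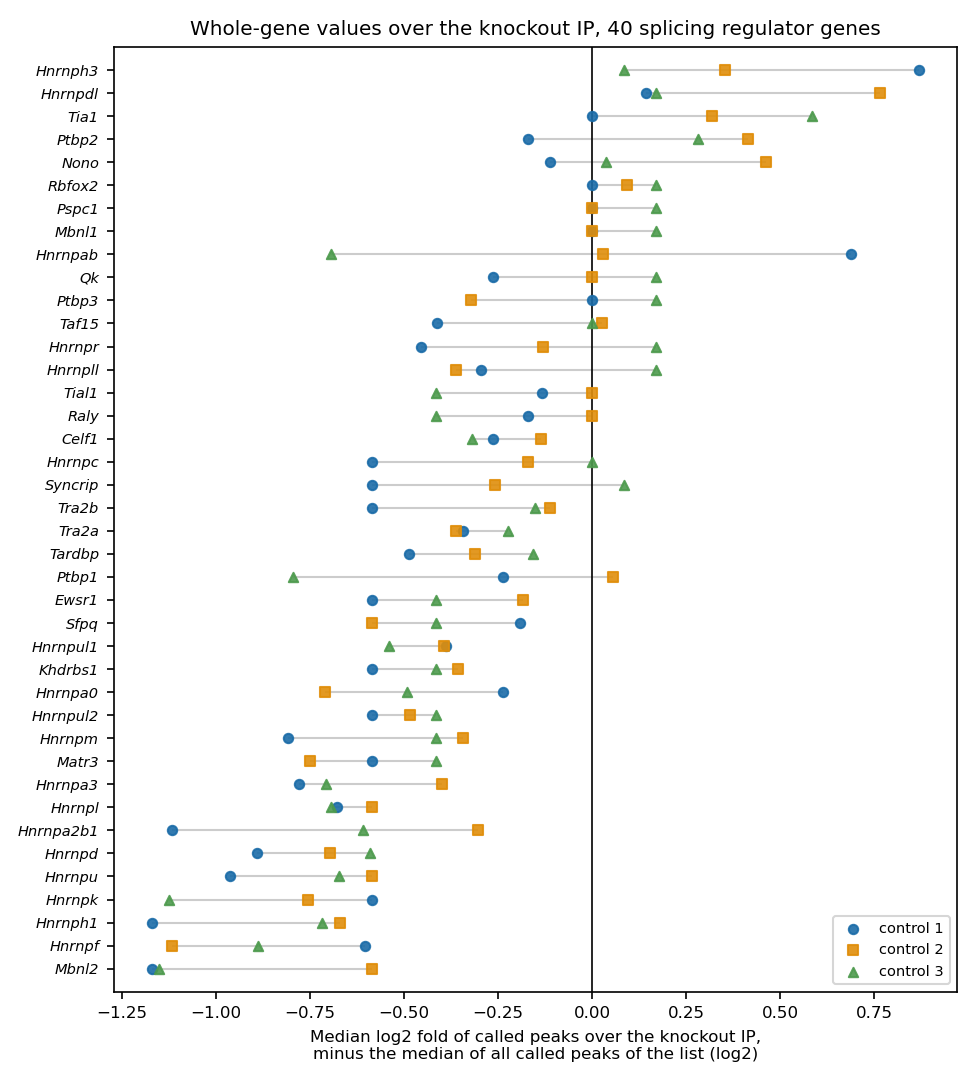
Median log2 fold of a gene's called peaks over the knockout IP minus the median of all called peaks of the list (log2), for the 40 members with at least 5 called peaks in each list, ordered by their mean; the 3 symbols are controls 1 to 3 and the grey bar is their range. The symbols of 21 genes all lie left of 0 and those of 2 genes, Hnrnph3 and Hnrnpdl, all lie right of it.

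The same whole-gene value was compared between controls and knockout over input, which does not use the lists over the knockout IP. In limma's moderated test over 4973 genes, with the lone knockout assumed to vary like the controls, 0 of 40 members passed an adjusted p-value of 0.05 in either direction (background 0% each way). At an unadjusted p under 0.05 there was 1 member, beside 9.43% of all genes. That member was Tia1, with 0.00, 0.28 and −0.42 in controls 1 to 3 against −1 in the knockout, a difference of 0.96 ± 0.34 (SE) with a limma adjusted p of 0.51. Member differences ran from −0.64 (Ptbp3) to 0.96, with a median of −0.06 against 0.19 for all genes, and their median SE was 0.26. Among the 5 genes with a region, controls minus knockout was −0.56 ± 0.40 (SE) for Hnrnpk, −0.50 ± 0.29 for Taf15, −0.39 ± 0.25 for Sfpq, −0.07 ± 0.18 for Hnrnpl and 0.29 ± 0.33 for Hnrnpab, with a lowest limma adjusted p of 0.617. It was 0.33 ± 0.26 for Mbnl2, 0.07 ± 0.21 for Hnrnpc, 0.06 ± 0.20 for Qk, −0.02 ± 0.26 for Ptbp1 and −0.11 ± 0.35 for Tardbp. Mbnl2 was thus higher in the controls over input, within error, and lower over the knockout IP.

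The same stretches of RNA were also compared between the 4 IPs. Sites with an overlapping called peak in all 4 lists over input numbered 14812, of which 224 lay in 40 members. In limma's test 0 of the 224 passed an adjusted p-value of 0.05 (background 0% each way). At an unadjusted p under 0.05 there were 20, 10 higher and 10 lower in the controls, near the background of 9.50%. The median member difference was 0.20, against 0.21 over all sites, and the median SE was 0.65. Sites without a called knockout peak, which include all 18 qualifying stretches, cannot enter this comparison.

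The called peaks lay along the whole of the genes. The median relative position, from 0 at the 5′ end to 1 at the 3′ end of the span, was 0.508, 0.565 and 0.558 in controls 1 to 3 and 0.538 in the knockout. Positions above 0.75 held 28.1, 32.7, 32.4 and 28.8% of the members' peaks in the same order, and positions below 0.25 held 29.3, 23.2, 26.1 and 25.5%. The 18 stretches were 52 to 127 nt long, and 0 of them lay in a RefSeq window around a gene start. Whether they are exonic or intronic was not analysed here.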

How the data were processed

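The 7 deposited lists hold positions on mm10, the build in the submitters' processing notes. The log2 fold and the −log10 p-value of each peak were computed by the authors; the lists lack a header, so both units were inferred from their values and column order. In 6 of the 7 deposited lists the −log10 p-value stopped at 400, and the knockout list reached 85.1. Aligner, peak caller and the handling of peaks without comparator reads: not given in the sources used here.

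Genes came from the RefSeq gene table (GRCm38.p6). A stretch of at least 1 nt, same strand, counted as overlap, and the value of a library at a region is that of its overlapping peak with the highest log2 fold. The strand with most called peaks matched the RefSeq start-window strand in 36 of 36 members that had one; 34 called peaks lay on the other strand. Medians of genes with at least 5 called peaks, and matched sites, were fitted with limma 3.58.1 in R 4.3.3 with Benjamini-Hochberg adjustment over all genes or sites. Tables were made with Python 3.11.15, pandas 2.3.3, NumPy 2.4.6 and SciPy 1.17.1. Region calling and the fits were tested on simulated data. Members and lists were chosen with earlier results of these data known. Values in every library are given for members with a qualifying or an enriched knockout peak, the 3 highest and 3 lowest by whole-gene value over the knockout IP, the 3 with most called peaks, members called in a fit, and Ptbp1, Hnrnpa1, Hnrnpc, Tardbp and Qk. Alternatives were other thresholds, overlaps, supports, scalings and leaving out each control. Inputs had no list of their own and were not analysed here. Coordinates are 1-based. The other splicing regulators with a region are not named here.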

Additional observations from a re-analysis of the deposited data

Results flagged for a closer look

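At 20 of the 224 matched member sites (8.93%, beside 6.79% of all sites) the 3 controls lay on one side of their library median over input and the knockout on the other, with the controls lower at 18 and higher at 2 (776 and 229 over all sites). None passed the adjusted threshold in limma's test, and the 2 with the lowest unadjusted p are given here. The Hnrnpm site at chr17:33665548-33665613, minus strand, had log2 folds over input of −0.17, −2.15 and −0.82 in controls 1 to 3 and 2.40 in the knockout, a difference of −3.92 ± 0.77 (SE; limma, unadjusted p = 0.00047, adjusted p = 0.408). The Hnrnpa1 site at chr15:103241633-103241709, plus strand, had 2.43, 1.72 and 1.40 in the controls and −0.768 in the knockout, a difference of 2.15 ± 0.64 (SE; limma, unadjusted p = 0.0072, adjusted p = 0.464). The log2 folds of both sites are given as deposited, whereas each difference was taken after the median of each library was subtracted. Both sites were picked for these values.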

How the results depend on the processing

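Of the alternatives to the main counts and shares, 38 were classed as kept and 20 as moved. A count was kept where it stayed within 1.5 times the main value, and the share difference where its sign held. The 24 region means without 1 control moved by less than 1 SD. Leaving out 1 of 3 values cannot move their mean further, so this says nothing about stability. The 5 genes with 5 regions became 8 regions at a log2 threshold of 2, and 0 genes and 0 regions at a threshold of 4. At a −log10 p-value of 5 there were 3 genes and 3 regions (Hnrnpab, Hnrnpk and Sfpq). When all 3 controls were required, 1 gene with 1 region (Hnrnpab) remained. In the whole series the 203 regions became 308, 58, 102 and 77 in the same order. Members held 2.46% of the 203, then 2.60%, 0%, 2.94% and 1.30%. Over the knockout IP alone there were 9 genes with 15 regions, and over input alone 9 regions (598 and 561 regions in the whole series). Leaving out 1 control gave 1 to 3 genes and 1 to 3 regions (81 to 150 regions in the whole series). With values as deposited, 1 member was called in the gene-level limma fit (Tia1, difference 1.42, SE 0.43, adjusted p = 0.0236), where 572 genes over the whole table were higher and 7 lower and the median of all genes moved from 0.19 to 0.66. The adjusted p of the lowest member ranged from 0.0236 to 0.534 over these fits. The count of members shifted over the knockout IP, 0 at a shift of 1, was 7 at a shift of 0.5, all lower (Hnrnpu, Hnrnpd, Hnrnpf, Hnrnpl, Hnrnph1, Hnrnpk and Mbnl2). It was 5 with values as deposited, all higher (Ptbp2, Hnrnpdl, Tia1, Hnrnph3 and Nono), so the direction of these counts turned with the centring, as did the members' median difference in the gene-level fit over input (−0.06 to 0.41). How many of all genes shifted by 0.5, or by 1 with values as deposited, was not counted. Neither count is thus a result about the members. The count of shifted members was 0 to 1 on leaving out 1 control (Mbnl2 without control 2). The site fit gave 0 members under each alternative. The share difference over input stayed positive, from 0.277 to 1.40 percentage points. The cause of these changes was not tested. No paired analysis was possible because controls and the knockout share only replicate number 1 and the inputs have no list of their own. Depth is unknown, and with 1 knockout library no permutation test can pass 0.05.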
